A study of Mus musculus with 4 samples.

Results

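The kidney clears drugs, toxins and metabolic waste through membrane carriers, and 110 of the 45037 probe sets on the arrays detected genes of 6 such families. The members were all probe sets whose only gene symbol began with Slc22a, Slc47a, Slco, Abcb, Abcc or Abcg followed by a digit, a rule that uses names alone. They covered 61 of the 18193 genes on the array with a symbol of their own. Of these 61 genes, 50 reached the detection floor on 1 or more of the 4 arrays, 43 reached it on all 4, and 11 stayed below it on all 4.

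In the proximal tubule, organic anions enter the epithelial cell from the blood in exchange for dicarboxylates and organic cations enter down the membrane potential. Other carriers then pass them into the urine, or take urate and other substrates back from it. The SLC22 family holds the organic anion, organic cation and carnitine transporters, the SLC47 family exchanges protons for organic cations at the luminal membrane, and the SLCO family holds the organic anion transporting polypeptides. The ABCB, ABCC and ABCG families use ATP, and include the P-glycoproteins, the multidrug resistance-associated proteins and the breast cancer resistance protein.

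The study set ischemia-reperfusion (IR) against sham surgery in 2 genotypes of male C57Bl/6 mice, with whole kidney as the tissue. The 4 groups were Tet2 knockout with 60 min of renal ischemia and 24 h of reperfusion, Tet2 knockout with sham surgery, wild type with the same ischemia and reperfusion, and wild type with sham surgery. Tet2 encodes an enzyme that oxidises 5-methylcytosine in DNA. Each group was 1 Affymetrix 3' expression array hybridised with RNA pooled from 3 mice. No group had a replicate, no test was made, and the spread between animals was not measured. The age of the mice, the Tet2 allele and the cells in which it acts are not given in the sources used here.

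Values are log2 signals as deposited. As the floor served the signal that 40% of all values on the 4 arrays do not exceed (a log2 signal of 5.72). A ratio is the difference between 2 arrays in log2 signal, with lower signals set to the floor, and a fold with 1 side at the floor is a lower bound ("at least"). A member was counted as higher or lower where the 2 arrays differed by 2-fold or more, which is a description of size and not a test. The technical spread was the SD of log2 ratios among probe sets of the same gene. Over all genes it was 0.39 for knockout-labelled IR over sham, 0.24 for wild-type IR over sham, 0.32 for knockout-labelled over wild type after IR and 0.19 for knockout-labelled over wild type after sham surgery. The same SD over the members was larger, at 0.57, 0.42, 0.49 and 0.23 in the same order.

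The 2 probe sets for Tet2 read 8.74 and 8.60 in knockout-labelled IR, 9.87 and 10.25 in knockout-labelled sham, 9.16 and 9.30 in wild-type IR and 9.96 and 9.84 in wild-type sham. Tet2 signal in the sham array labelled knockout was therefore not clearly below that in the wild-type sham array, and whether these probe sets lie in a deleted part of the gene is not known here. The genotype is called knockout-labelled for that reason. All 9 proximal tubule markers (among them Lrp2, Slc34a1 and Miox, none of them a transporter counted here) were above the floor on every array. Their summed linear signal was 27001 in knockout-labelled IR, 75619 in knockout-labelled sham, 49187 in wild-type IR and 74999 in wild-type sham. Markers of tissue outside the nephron also differed between arrays: all 4 adipose markers on the array were below the floor in knockout-labelled sham and in wild-type IR, and summed to 1111 in knockout-labelled IR and 2032 in wild-type sham. In these whole-kidney samples, fewer cells of a type and less RNA per cell cannot be told apart.

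Promoter sequences of 49 of the 61 members were found in RefSeq's table for mouse GRCm38.p6, as 250 bases upstream of each annotated start. The 5 windows shown are those of Slc22a19 and Slc22a30, which were far lower in knockout-labelled IR than in its sham, of their neighbours Slc22a8 and Slc22a6, and of Slco4c1, which was lower after IR in both genotypes. They lie at chr19:7711311-7711560 (minus strand, Slc22a19), chr19:8405106-8405355 (minus strand, Slc22a30), chr19:8592932-8593181 (plus strand, Slc22a8), chr19:8617746-8617995 (plus strand, Slc22a6) and chr1:96872172-96872421 (minus strand, Slco4c1), each ending at the base before the start of transcription. Capitals mark matches, on either strand, to GTTAAT (a half-site of the tubular factors HNF1) or TGACNNNGC (the antioxidant response element read by NRF2).
Slc22a19: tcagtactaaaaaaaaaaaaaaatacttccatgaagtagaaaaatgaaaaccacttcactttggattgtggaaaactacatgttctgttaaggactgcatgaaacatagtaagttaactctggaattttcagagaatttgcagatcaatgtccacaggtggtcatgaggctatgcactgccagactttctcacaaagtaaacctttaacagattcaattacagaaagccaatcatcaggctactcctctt
Slc22a30: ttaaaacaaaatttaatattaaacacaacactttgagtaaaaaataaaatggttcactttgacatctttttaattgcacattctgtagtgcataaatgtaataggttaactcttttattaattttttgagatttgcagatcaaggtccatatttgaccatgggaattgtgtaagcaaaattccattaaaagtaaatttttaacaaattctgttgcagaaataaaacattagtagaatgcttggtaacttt
Slc22a8: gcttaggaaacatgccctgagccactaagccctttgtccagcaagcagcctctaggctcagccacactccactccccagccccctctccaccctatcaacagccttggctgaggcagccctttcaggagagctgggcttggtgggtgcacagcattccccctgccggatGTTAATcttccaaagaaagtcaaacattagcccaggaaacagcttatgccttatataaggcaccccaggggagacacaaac
Slc22a6: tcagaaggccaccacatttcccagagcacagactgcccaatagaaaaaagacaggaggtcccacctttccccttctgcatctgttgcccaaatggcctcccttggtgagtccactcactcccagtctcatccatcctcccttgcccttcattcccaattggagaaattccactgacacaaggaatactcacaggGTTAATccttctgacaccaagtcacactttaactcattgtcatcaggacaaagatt
Slco4c1: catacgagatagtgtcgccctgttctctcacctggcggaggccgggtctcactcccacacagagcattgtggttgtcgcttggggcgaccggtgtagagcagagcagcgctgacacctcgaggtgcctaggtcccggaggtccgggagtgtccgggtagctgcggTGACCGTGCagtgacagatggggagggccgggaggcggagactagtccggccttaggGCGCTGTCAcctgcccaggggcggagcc

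The letters GTTAAT stood 56 bases upstream of the start in Slc22a6 and 81 bases upstream in Slc22a8, and at neither Slc22a19 nor Slc22a30. Among the members' 59 windows, 4 held GTTAAT (6.78%), against 6.43% of all 32851 windows in the table. Slco4c1 held 2 matches to TGACNNNGC, which do not overlap each other, and 8 member windows of 7 genes held 1 or more (13.6%), against 10.2% of all windows. TGANTCA, the AP-1 motif, was found in 1 member window (1.69%) against 6.75% of all. CAAAGTCCA, a core of the HNF4 motif, was found in none of the 59 and in 0.384% of all. A match is a description of letters only. The Slc22a19 and Slc22a30 windows were 65.2% identical base for base after alignment and those of Slc22a29 and Slc22a30 were 70.0% identical, which was the highest of the 10 pairs among Slc22a19, Slc22a26, Slc22a27, Slc22a29 and Slc22a30. These 10 pairs ran from 48.0% to 70.0%, and overlapped the 44.0% to 54.0% of the 21 pairs of an Slc22a window from this stretch of chromosome 19 with an Abcb window from the stretch of chromosome 5 described further on.

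In the knockout-labelled kidney after IR, 11 of the 21 measured SLC22 genes were lower than in sham, and the 7 higher members were 4 ATP-driven pumps, 2 organic anion transporting polypeptides and the carnitine carrier Slc22a21. In knockout-labelled IR against sham, 14 of 50 members (28.0%) were lower by 2-fold or more, against 6.89% of all measured genes. Another 7 members (14%) were higher, against 6.06% of all, so that 42.0% differed in either direction, against 12.9% of all. In wild-type IR against sham, 8 of 50 members (16.0%) were lower, against 2.18% of all measured genes, and 2 (4.0%) were higher, against 2.06%, which makes 20.0% in either direction, against 4.24% of all. The median log2 ratio of the members was -0.28 in the knockout-labelled genotype, with -0.02 over all genes, and -0.13 in wild type, with 0.02 over all genes. Of the other solute carriers, 49 of 264 were lower and 14 higher in the knockout-labelled genotype, and 8 of 265 were lower and 10 higher in wild type.

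**Figure D1:**
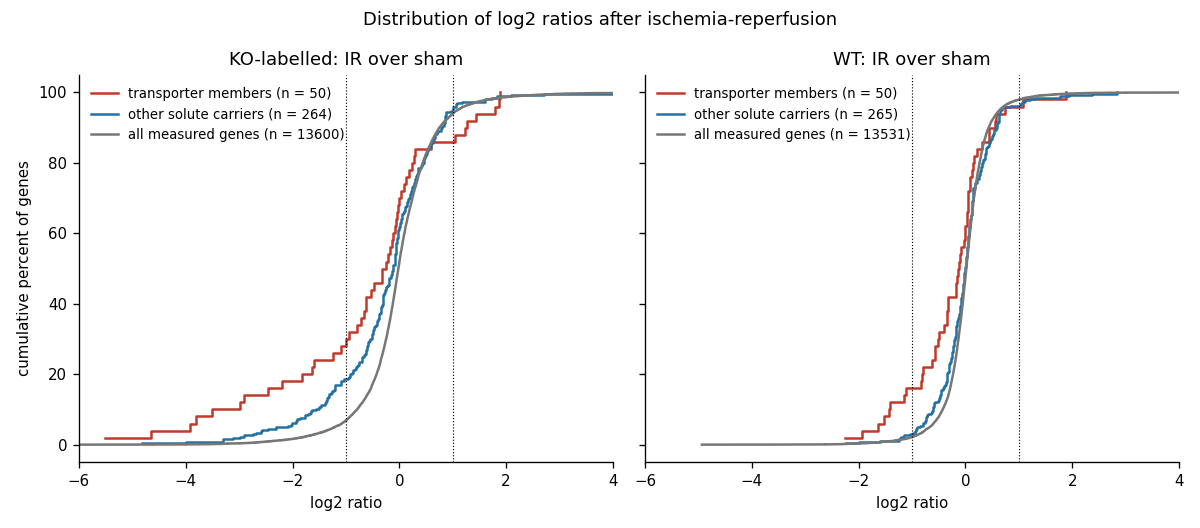
Cumulative percent of genes (vertical axis) against the log2 ratio of IR over sham (horizontal axis, running from -6 to 4), for the transporter members, the other solute carriers and all measured genes, knockout-labelled at left and wild type at right; dotted lines mark 2-fold. The members' curve lies left of both others over its lower part in each genotype, and 14 of 50 members lie beyond the lower line in the knockout-labelled panel, against 8 of 50 in the wild-type panel.

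The responses of both genotypes rest on 4 different arrays. Over the 50 members their log2 ratios correlated with a Pearson's r of 0.74 and a Spearman's rho of 0.71, against 0.55 and 0.49 over the 13323 genes measured in both. The points share the probe sets and their signal level, and these correlations are a description. The ratio was lower in the knockout-labelled genotype than in wild type for 32 members and higher for 18. At 2-fold or more, 7 members were lower in both genotypes, namely Slc22a7, Slc22a19, Slc22a22, Slc22a26, Slc22a30, Slco4c1 and Abcc9, and Slco2a1 and Abcb1b were higher in both.

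**Figure D2:**
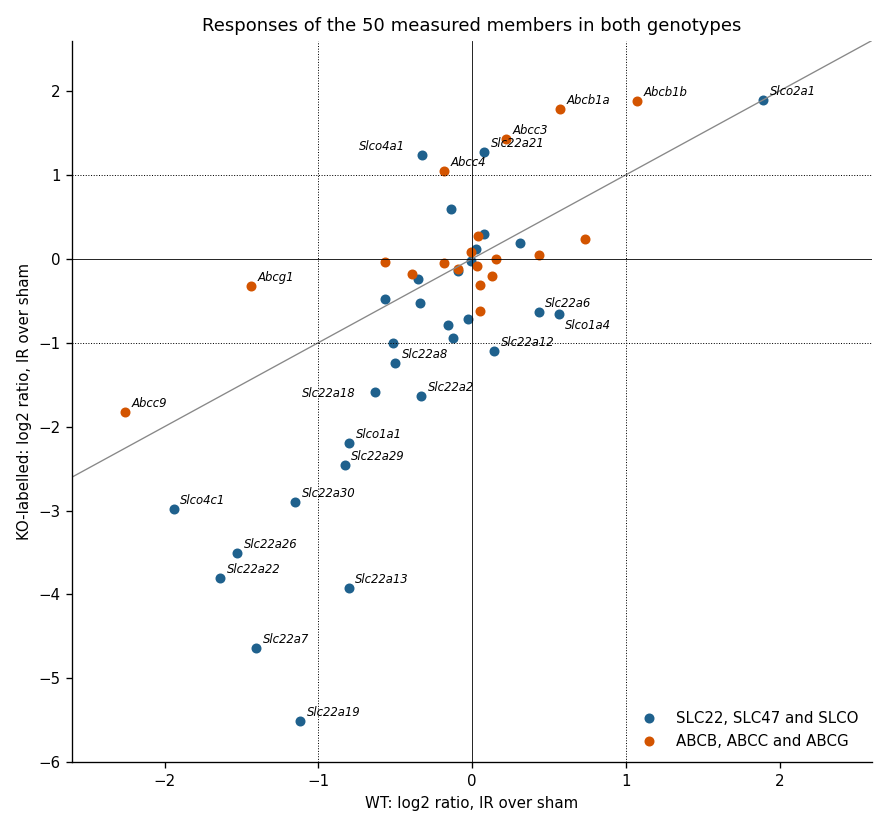
Log2 ratio of IR over sham in the knockout-labelled genotype (vertical axis) against that in wild type (horizontal axis) for the 50 measured members, 1 point per gene, with the line of equal response in grey and dotted lines at 2-fold. Slc22a19 lies lowest, at -5.51 and -1.12, Slco2a1 lies on the line at 1.89 in both, and Abcc9 and Abcg1 lie above the line on its left side.

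The genes grouped here as organic anion uptake carriers were Slc22a6, Slc22a7, Slc22a8 and Slco4c1. Of these 4, 3 were lower in knockout-labelled IR than in sham (6.89% of all genes) and 2 in wild-type IR (2.18% of all genes). Slc22a7 (OAT2), a carrier of organic anions and nucleotides, had a log2 signal of 7.74 in knockout-labelled IR against 12.38 in knockout-labelled sham, and 11.15 in wild-type IR against 12.56 in wild-type sham. Both sham arrays lay above both IR arrays, and the knockout-labelled IR array was far below the other 3. The fold was 24.96 lower in the knockout-labelled genotype and 2.64 lower in wild type, and Slc22a7 was 10.7-fold lower in knockout-labelled IR than in wild-type IR.

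Slco4c1, which in human and rat kidney carries digoxin, thyroid hormone and uraemic toxins at the basolateral membrane, had log2 signals of 4.26 in knockout-labelled IR and 8.71 in knockout-labelled sham, and 7.96 in wild-type IR and 9.90 in wild-type sham. It was below the floor in knockout-labelled IR, at least 7.91-fold lower than in its sham, and it was 3.84-fold lower in wild-type IR than in wild-type sham. With knockout-labelled sham as the control the wild-type log2 ratio was -0.74, under 2-fold. Slco4c1 was also 2.29-fold lower in knockout-labelled sham than in wild-type sham, so its lower signal in the knockout-labelled genotype was present without ischemia. A second probe set gave a log2 ratio of -2.13 for knockout-labelled IR over sham, a bound because its IR array was below the floor, and measured ratios of -2.06 for wild-type IR over sham and -1.44 for knockout-labelled sham over wild-type sham.

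Slc22a6 (OAT1) and Slc22a8 (OAT3), which exchange organic anions such as para-aminohippurate for dicarboxylates at the basolateral membrane, had smaller ratios. Slc22a6 read 11.76 in knockout-labelled IR and 12.39 in knockout-labelled sham, and 12.91 in wild-type IR and 12.48 in wild-type sham. The IR array was thus the lower of its pair in the knockout-labelled genotype and the higher in wild type, with log2 ratios of -0.63 and 0.43, and -0.68 and 0.84 with a second probe set. Between the IR arrays Slc22a6 was 2.22-fold lower in the knockout-labelled genotype.

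Slc22a8 read 9.87 in knockout-labelled IR and 11.11 in knockout-labelled sham, and 10.79 in wild-type IR and 11.29 in wild-type sham. It was 2.37-fold lower in knockout-labelled IR, and its wild-type log2 ratio of -0.50 had the opposite sign to the 0.33 of its second probe set, which was below the floor in knockout-labelled IR. The direction of Slc22a8 in wild type was therefore not settled by its own probe sets.

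**Figure D3:**
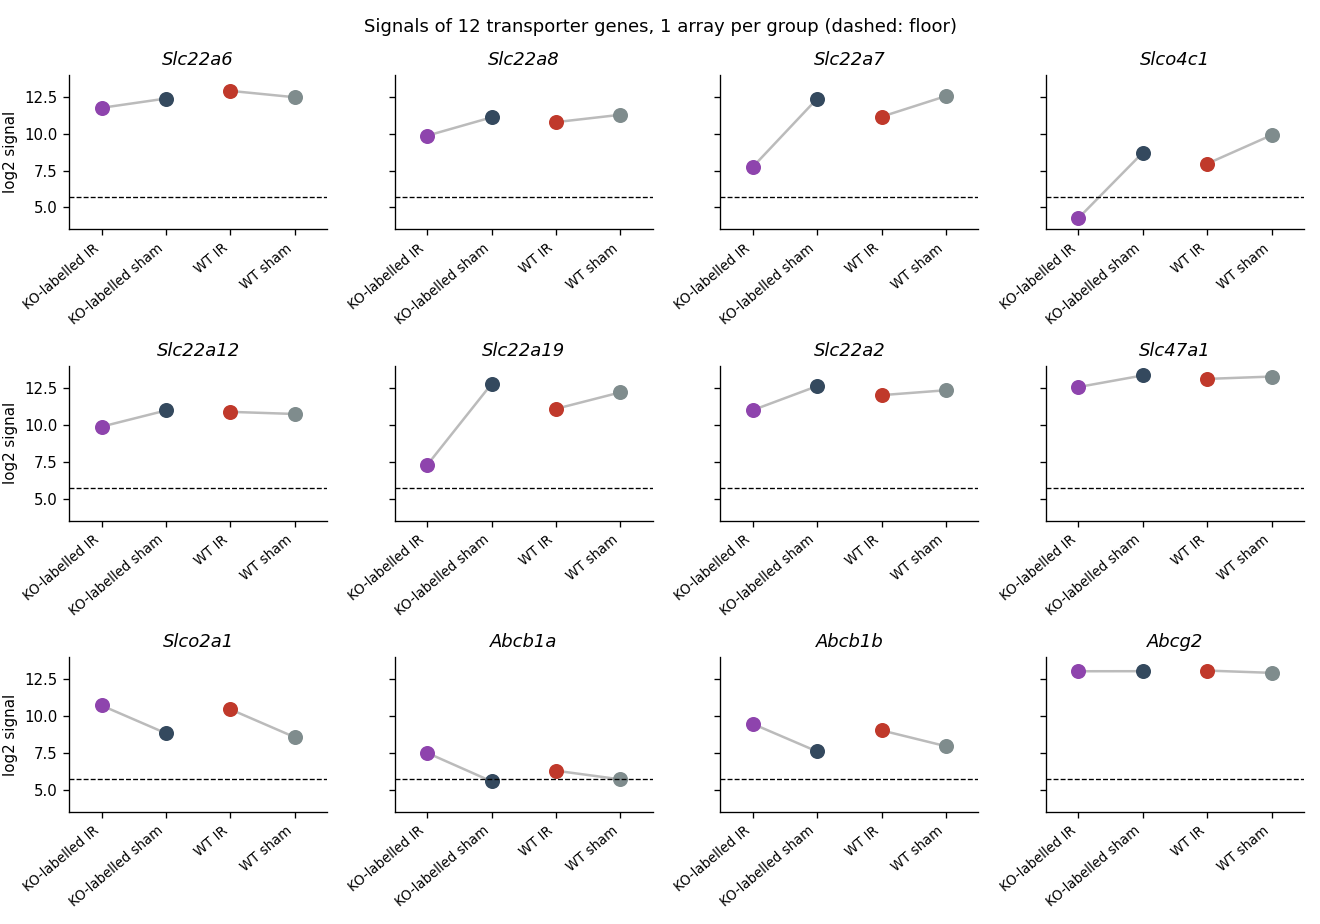
Log2 signal of 12 transporters in each of the 4 groups, 1 array per group and so without error bars, with a line joining the IR and sham arrays of a genotype and a dashed line at the floor. Slc22a7, Slc22a19 and Slco4c1 are far lower in knockout-labelled IR than in the other 3 arrays, Slco2a1 and Abcb1b are higher in both IR arrays, and Abcg2 lies between 12.94 and 13.09 on all 4.

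The urate transporter and the other anion carriers of the SLC22 family, several of them found only in rodents, formed the group with the lowest median ratio in the knockout-labelled genotype. Of its 8 measured members, 7 were lower in knockout-labelled IR than in sham (6.89% of all genes), with a median log2 ratio of -3.21 over the 8. In wild-type IR 4 were lower (2.18% of all genes), with a median of -0.97. All 7 that could be compared were lower in knockout-labelled IR than in wild-type IR (3.99% of all genes), with a median of -1.96. Between the sham arrays none of the 8 differed by 2-fold (1.03% of all genes in either direction), which is near that share, and the median was 0.21.

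Slc22a19 (OAT5 in the mouse), a luminal carrier of sulphated steroids and other anions, read 7.27 in knockout-labelled IR and 12.78 in knockout-labelled sham, and 11.09 in wild-type IR and 12.21 in wild-type sham. It was 45.6-fold lower in knockout-labelled IR and 2.17-fold lower in wild-type IR than in the matching sham, and 14.1-fold lower in knockout-labelled IR than in wild-type IR. Its ratio was the lowest of any member in the knockout-labelled genotype, in part because its knockout-labelled sham array was the highest of the 4. With wild-type sham as the control the log2 ratio was -4.94, against -5.51.

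Slc22a13, a carrier of nicotinate and urate, read 7.12 in knockout-labelled IR and 11.04 in knockout-labelled sham, and 9.93 in wild-type IR and 10.74 in wild-type sham. It was 15.2-fold lower in the knockout-labelled genotype, against 1.74-fold lower in wild type. Slc22a22, which takes up prostaglandins in mouse kidney, read 8.22 in knockout-labelled IR and 12.03 in knockout-labelled sham, and 10.20 in wild-type IR and 11.84 in wild-type sham, which made it 13.97-fold and 3.11-fold lower. For both genes the 2 sham arrays were the higher ones and knockout-labelled IR was the lowest.

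Slc22a26 read 6.24 in knockout-labelled IR and 9.75 in knockout-labelled sham, and 8.03 in wild-type IR and 9.55 in wild-type sham, an 11.4-fold and a 2.88-fold lower signal. Slc22a30 read 10.08 in knockout-labelled IR and 12.98 in knockout-labelled sham, and 11.61 in wild-type IR and 12.76 in wild-type sham, a 7.48-fold and a 2.22-fold lower signal. Both had the same order of arrays as Slc22a22, and no substrate is named here for either. Slc22a7, Slc22a13, Slc22a19, Slc22a22 and Slc22a30 had 1 probe set each, so their ratios have no second reading.

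Slc22a29 read 5.70, just under the floor, in knockout-labelled IR and 8.18 in knockout-labelled sham, and 7.68 in wild-type IR and 8.51 in wild-type sham. It was at least 5.49-fold lower in the knockout-labelled genotype and 1.78-fold lower in wild type. Its probe set is of a kind that can also bind related transcripts. A probe set listed for both Slc22a30 and Slc22a29, which is not among the members, gave log2 ratios of -2.93 and -0.80, so the signal of these near relatives cannot be fully separated.

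Slc22a12 (URAT1), which takes urate back from the tubular fluid in exchange for organic anions, read 9.88 in knockout-labelled IR and 10.98 in knockout-labelled sham, and 10.89 in wild-type IR and 10.74 in wild-type sham. It was 2.15-fold lower in the knockout-labelled genotype, where the second probe set gave a log2 ratio of -0.79 (under 2-fold), and its wild-type ratio was 0.14. Slc22a27, the remaining member of this group, was below the floor on both IR arrays.

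Slc22a19, Slc22a26, Slc22a27, Slc22a28, Slc22a29, Slc22a30, Slc22a8 and Slc22a6 follow each other on chromosome 19 in that order in the GRCm38.p6 gene table. The 5 measured genes from Slc22a19 to Slc22a30 had log2 ratios of -5.51, -3.51, -0.47, -2.46 and -2.90 in the knockout-labelled genotype and -1.12, -1.53, -0.57, -0.83 and -1.15 in wild type, those of Slc22a27 on both sides and of Slc22a29 in the knockout-labelled genotype being bounds. The last pair of the run, Slc22a8 and Slc22a6, had -1.24 and -0.63 in the knockout-labelled genotype and -0.50 and 0.43 in wild type. All 7 measured genes of the run were thus below 0 in the knockout-labelled genotype, and with the probe sets used Slc22a6 was the 1 gene above 0 in wild type, the direction of Slc22a8 there being unsettled. Slc22a28 was not analysed here.

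Markers of the tubule moved in the same arrays. Of the 9 proximal tubule markers, 7 were lower in knockout-labelled IR than in sham (6.89% of all genes), with a median log2 ratio of -1.85. In wild-type IR 2 were lower (2.18% of all genes), with a median of -0.59, and 4 were lower in knockout-labelled IR than in wild-type IR (3.99% of all genes). The 5 markers of injured tubule, among them Havcr1 and Lcn2, were all higher in knockout-labelled IR (6.06% of all genes) and 3 were higher in wild-type IR (2.06% of all genes). Their summed linear signals were 39413 in knockout-labelled IR, 425 in knockout-labelled sham, 21716 in wild-type IR and 1023 in wild-type sham. Of the 4 distal nephron markers, 2 were lower in knockout-labelled IR than in sham (6.89% of all genes) and none in wild-type IR (2.18% of all genes). Their summed linear signals were 22843 in knockout-labelled IR, 40529 in knockout-labelled sham, 38022 in wild-type IR and 45523 in wild-type sham. The part of these differences in the transporter ratios was not tested.

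Among the organic cation carriers, Slc22a2 (OCT2), the basolateral entry step for drugs such as metformin, was lower in the knockout-labelled genotype alone at 2-fold. It read 11.002 in knockout-labelled IR and 12.63 in knockout-labelled sham, and 12.02 in wild-type IR and 12.35 in wild-type sham, which was 3.10-fold and 1.26-fold lower. Between the IR arrays it was 2.02-fold lower in the knockout-labelled genotype, close to the threshold. Slc47a1 (MATE1), which passes organic cations on into the urine, read 12.57 in knockout-labelled IR and 13.36 in knockout-labelled sham, and 13.12 in wild-type IR and 13.28 in wild-type sham, 1.73-fold and 1.12-fold lower.

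The carnitine and zwitterion carriers divided by gene. Slc22a5 (OCTN2), the main carnitine transporter of kidney and muscle, read 11.89 in knockout-labelled IR and 12.60 in knockout-labelled sham, and 12.53 in wild-type IR and 12.56 in wild-type sham. Its log2 ratio in the knockout-labelled genotype was -0.72, and -1.22 with a second probe set. Slc22a4 (OCTN1), a carrier of ergothioneine, read 8.86 in knockout-labelled IR and 9.81 in knockout-labelled sham, and 9.73 in wild-type IR and 9.86 in wild-type sham, 1.93-fold lower in the knockout-labelled genotype. Neither reached 2-fold in any comparison with the probe set used.

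Slc22a21, which lies between Slc22a5 and Slc22a4 on chromosome 11 and carries carnitine in the mouse, was the higher one after IR. It read 6.99 in knockout-labelled IR against 5.63, under the floor, in knockout-labelled sham, and 5.80 in wild-type IR against 5.31, under the floor, in wild-type sham. It was at least 2.41-fold higher in knockout-labelled IR than in sham and 2.28-fold higher in knockout-labelled IR than in wild-type IR, at signals near the floor on the other 3 arrays.

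Of the other SLC22 genes, Slc22a18, an imprinted gene, read 10.87 in knockout-labelled IR and 12.46 in knockout-labelled sham, and 11.69 in wild-type IR and 12.32 in wild-type sham, 3.02-fold and 1.55-fold lower, and its second probe set gave log2 ratios of -1.64 and -0.90. Slc22a23 lay between 9.35 and 9.57 on all 4 arrays. No other gene of this group reached 2-fold in any comparison, and Slc22a14 lay between 6.80 and 6.83.

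**Figure D4:**
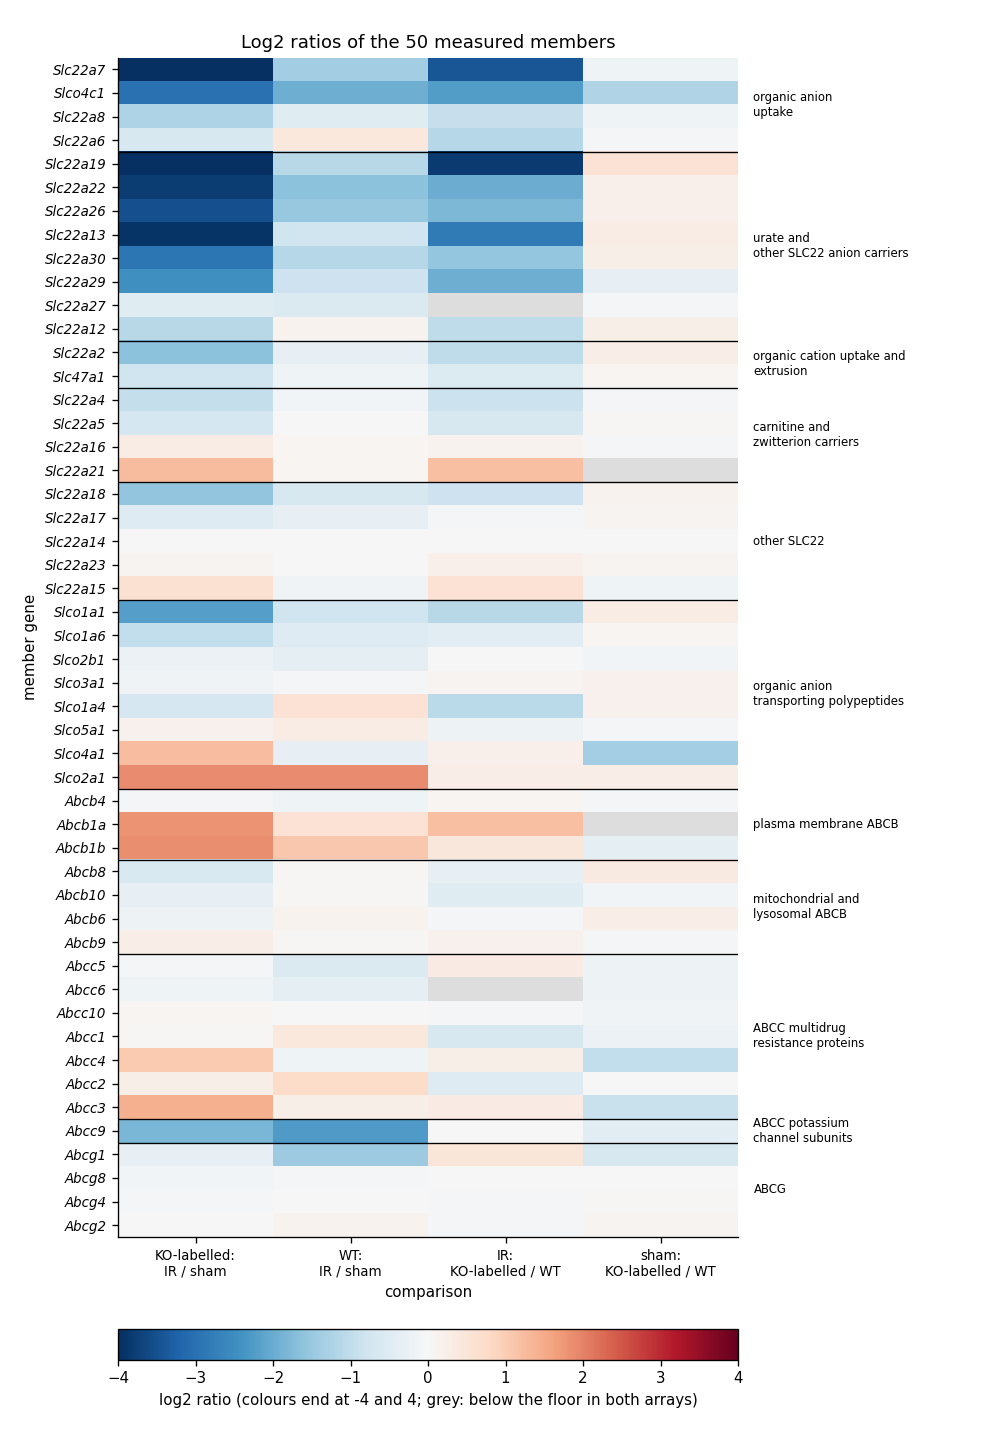
Log2 ratios of the 50 measured members, 1 row per gene in role groups, for IR over sham in the knockout-labelled genotype and in wild type and for knockout-labelled over wild type after IR and after sham surgery; blue is lower, red is higher, colours end at -4 and 4, and grey marks a gene below the floor on both arrays. The anion carriers form a block of blue in the knockout-labelled IR columns, while the sham column is pale except for Slco4c1 and Slco4a1 and, just under 2-fold, Abcc4.

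The organic anion transporting polypeptides were mixed. Of 8 measured genes, 2 were higher (6.06% of all genes) and 1 lower (6.89% of all genes) in knockout-labelled IR, and 1 was higher in wild-type IR (2.06% of all genes). Slco1a1, which carries steroid conjugates and other anions, read 10.97 in knockout-labelled IR and 13.17 in knockout-labelled sham, and 12.08 in wild-type IR and 12.88 in wild-type sham, 4.58-fold and 1.74-fold lower. Slco1a6 read 10.93 in knockout-labelled IR and 11.93 in knockout-labelled sham, a log2 ratio of -0.9996 that stayed just short of 2-fold, against 11.35 in wild-type IR and 11.86 in wild-type sham. Slco1a4, a carrier of organic anions and digoxin, read 6.94 in knockout-labelled IR and 7.60 in knockout-labelled sham, and 8.01 in wild-type IR and 7.44 in wild-type sham. Its IR array was the lower of the pair in the knockout-labelled genotype and the higher in wild type, and between the IR arrays it was 2.10-fold lower in the knockout-labelled genotype.

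Slco2a1, the prostaglandin transporter, was higher after IR in both genotypes. It read 10.72 in knockout-labelled IR and 8.83 in knockout-labelled sham, and 10.46 in wild-type IR and 8.57 in wild-type sham, 3.71-fold higher in each. Both IR arrays lay above both sham arrays, and the difference between the 2 responses was 0.00 on the log2 scale. Its other 3 probe sets gave log2 ratios of 1.01 to 2.19 in the knockout-labelled genotype and 0.55 to 0.65 in wild type, so the equality of the responses rests on 1 probe set and the 2-fold difference in wild type was not seen with the others. Slco2a1 is known from vascular endothelium as well as tubule. Of the 7 endothelial markers, 1 was lower in knockout-labelled IR (6.89% of all genes) and 4 were lower in wild-type IR (2.18% of all genes). None was higher in either (6.06% and 2.06% of all genes). Between the IR arrays 5 were higher in the knockout-labelled genotype (3.68% of all genes) and none lower, with a median log2 ratio of 1.25. Their summed linear signal was 2076 in knockout-labelled IR, 2711 in knockout-labelled sham, 818 in wild-type IR and 2871 in wild-type sham.

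Slco4a1, a carrier of thyroid hormone and other organic anions, read 8.62 in knockout-labelled IR and 7.39 in knockout-labelled sham, and 8.43 in wild-type IR and 8.75 in wild-type sham. Here the knockout-labelled sham array was the one that stood apart, below the other 3. Slco4a1 was 2.35-fold higher in knockout-labelled IR than in its sham and 2.57-fold lower in knockout-labelled sham than in wild-type sham, and with wild-type sham as the control its log2 ratio in knockout-labelled IR was -0.13. A second probe set gave 2.24 for knockout-labelled IR over sham and -2.06 for knockout-labelled sham over wild-type sham.

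The P-glycoprotein genes, which in the mouse are the pair Abcb1a and Abcb1b and pump lipophilic drugs out of the cell, were higher after IR. Abcb1b read 9.47 in knockout-labelled IR and 7.60 in knockout-labelled sham, and 9.03 in wild-type IR and 7.96 in wild-type sham, 3.67-fold and 2.11-fold higher, and its second probe set was below the floor on all 4 arrays. Abcb1a read 7.50 in knockout-labelled IR against 5.57, under the floor, in knockout-labelled sham, and 6.29 in wild-type IR against 5.70, under the floor, in wild-type sham. It was at least 3.44-fold higher in the knockout-labelled genotype and at least 1.48-fold higher in wild type. For both genes the 2 IR arrays lay above the 2 sham arrays and knockout-labelled IR was the highest, and Abcb1a was 2.32-fold higher in knockout-labelled IR than in wild-type IR.

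Abcb4, which moves phosphatidylcholine into bile in the liver and adjoins Abcb1a and Abcb1b on chromosome 5, lay between 6.54 and 6.72 on all 4 arrays. The ABCB genes of mitochondria and lysosomes showed no 2-fold difference in any comparison. Abcb6, a carrier linked to porphyrins, read 9.10 in knockout-labelled IR and 9.31 in knockout-labelled sham, and 9.16 in wild-type IR and 9.03 in wild-type sham. Abcb10, of the mitochondrial inner membrane, read 8.55 and 8.86 in the knockout-labelled arrays (IR and sham) and 9.03 and 8.98 in the wild-type arrays.

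Among the multidrug resistance-associated proteins, 2 of 7 measured genes were higher in knockout-labelled IR than in sham (6.06% of all genes). None reached 2-fold in wild type (4.24% of all genes in either direction), which is near that share. Abcc3, a basolateral pump of conjugated anions, read 7.46 in knockout-labelled IR and 6.03 in knockout-labelled sham, and 7.14 in wild-type IR and 6.92 in wild-type sham, 2.69-fold higher in the knockout-labelled genotype and 1.17-fold higher in wild type. Abcc4 (MRP4), which exports organic anions, urate and cyclic nucleotides into the urine, read 9.27 in knockout-labelled IR and 8.22 in knockout-labelled sham, and 9.04 in wild-type IR and 9.22 in wild-type sham, 2.07-fold higher in the knockout-labelled genotype. For both genes the array that stood apart was knockout-labelled sham, which was the lowest. With wild-type sham as the control, the log2 ratios in knockout-labelled IR were 0.55 for Abcc3 and 0.05 for Abcc4. With knockout-labelled sham as the control, those in wild-type IR were 1.11 for Abcc3, past 2-fold, and 0.82 for Abcc4.

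Urothelial and adipose markers were lower in the same knockout-labelled sham array than in wild-type sham, and adipose markers were low in wild-type IR as well. The 4 urothelial markers summed to 673 in knockout-labelled IR, 418 in knockout-labelled sham, 531 in wild-type IR and 825 in wild-type sham. Of these, 2 were lower by 2-fold in knockout-labelled sham than in wild-type sham (0.846% of all genes). Of the 3 measured adipose markers, 2 were lower in that comparison (0.846% of all genes). All 4 adipose markers on the array were below the floor in wild-type IR too, with sums of 112 there and 106 in knockout-labelled sham. The part of these tissues in the signals of Slco4a1, Abcc3 and Abcc4 was not tested.

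Abcc2 (MRP2), a luminal pump of glutathione and glucuronide conjugates, read 9.9997 in knockout-labelled IR and 9.77 in knockout-labelled sham, and 10.53 in wild-type IR and 9.79 in wild-type sham, with log2 ratios of 0.23 and 0.74. Abcc5, which carries cyclic nucleotides and other anions, lay between 8.78 and 9.35 on all 4 arrays with the probe set used. Its other measured probe sets gave log2 ratios of -0.13 to 0.93 in the knockout-labelled genotype.

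Abcc9, which encodes the sulphonylurea receptor SUR2 of potassium channels in vascular smooth muscle and heart, was lower after IR in both genotypes. It read 6.14 in knockout-labelled IR and 7.97 in knockout-labelled sham, and 6.17 in wild-type IR and 8.42 in wild-type sham, 3.56-fold and 4.78-fold lower. The 2 IR arrays were almost equal and below both sham arrays. Its other 2 probe sets gave log2 ratios of -0.86 and -0.14 in the knockout-labelled genotype and -0.67 and -0.44 in wild type. All were below 0. The first of each pair was under 2-fold, and the second is a bound from a probe set below the floor on both IR arrays.

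Of the ABCG genes, Abcg2, the breast cancer resistance protein that secretes urate and drugs across the luminal membrane, read 13.05 in knockout-labelled IR and 13.05 in knockout-labelled sham, and 13.09 in wild-type IR and 12.94 in wild-type sham. Its log2 ratios of 0.00 and 0.16 were within the technical spread. In the same arrays 7 (knockout-labelled, 6.89% of all genes) and 2 (wild type, 2.18% of all genes) of the 9 proximal tubule markers were lower. Abcg1, which exports cholesterol from macrophages and other cells, read 7.06 in knockout-labelled IR and 7.38 in knockout-labelled sham, and 6.58 in wild-type IR and 8.02 in wild-type sham, and was 2.71-fold lower in wild type. Its wild-type sham array was the highest of the 4. With the sham arrays exchanged, its log2 ratios were -0.96 in knockout-labelled IR and -0.79 in wild-type IR, both under 2-fold. A second probe set of Abcg1 gave log2 ratios of -0.32 and -0.16, so the 2-fold difference in wild type was seen with 1 of 2 probe sets. Abcg4 lay between 7.53 and 7.61 on all 4 arrays.

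**Figure D5:**
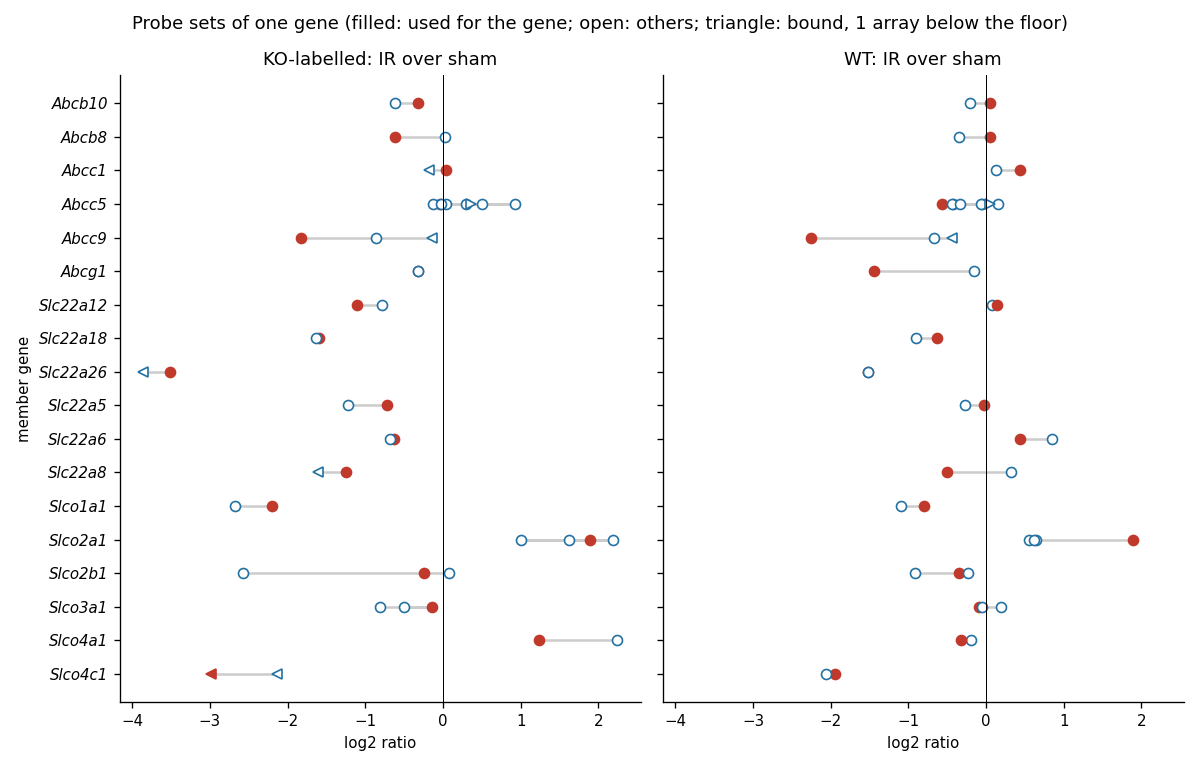
Log2 ratios of IR over sham for members with more than 1 probe set measured in both genotypes, knockout-labelled at left and wild type at right, with the probe set used for the gene filled and the others open; a triangle is a bound, with 1 of the 2 arrays below the floor, and points away from 0. The probe sets of Slc22a18 lie close together in the knockout-labelled panel, at -1.59 and -1.64, while those of Slco2b1 span -2.57 to 0.08 there and those of Slco2a1 span 0.55 to 1.89 in the wild-type panel.

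Read by mechanism, the carriers of the SLC22, SLC47 and SLCO families and the ATP-driven pumps had these counts. Of 31 measured SLC22, SLC47 and SLCO genes, 13 were lower and 3 higher in knockout-labelled IR than in sham (median log2 ratio -0.79), and 6 were lower and 1 higher in wild-type IR (median -0.33). Over all genes 6.89% were lower and 6.06% higher in the first comparison, and 2.18% lower and 2.06% higher in the second. Of 19 measured ABCB, ABCC and ABCG genes, 1 was lower and 4 were higher in knockout-labelled IR (median -0.04), and 2 were lower and 1 higher in wild-type IR (median 0.04), read against the same shares. Whether the 2 kinds differ was not tested.

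Between genotypes after IR, 13 of 48 members were lower by 2-fold or more in knockout-labelled IR than in wild-type IR (27.1%, against 3.99% of all measured genes) and 2 were higher (4.17%, against 3.68%), or 31.2% in either direction, against 7.68% of all. The 13 were Slc22a2, Slc22a6, Slc22a7, Slc22a12, Slc22a13, Slc22a19, Slc22a22, Slc22a26, Slc22a29, Slc22a30, Slco1a1, Slco1a4 and Slco4c1, all of the SLC22 and SLCO families, and the 2 were Slc22a21 and Abcb1a. Between genotypes after sham surgery, 2 of 48 members were lower in the knockout-labelled array (4.17%, against 0.846% of all), Slco4a1 and Slco4c1, and none was higher, against 0.186% of all. In either direction that is 4.17% of the members, against 1.03% of all measured genes. No p can be given for these counts of 0 and 2, which come from 1 array a group.

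The response to IR was also set between genotypes, as the knockout-labelled log2 ratio minus the wild-type log2 ratio. It was lower by 2-fold or more for 13 of 50 members (26.0%, against 4.77% of all genes) and higher for 6 (12%, against 4.75%), or 38.0% in either direction, against 9.52% of all. The lowest differences were -4.39 for Slc22a19, -3.24 for Slc22a7 and -3.12 for Slc22a13. Those of Slco4c1 (-1.04) and Slc22a29 (-1.63) involve a knockout-labelled IR signal under the floor. A second probe set of Slco4c1, also under the floor there, gave -0.07, and that of Slc22a12 gave -0.86 against -1.25, both under 2-fold. The 6 higher were Slco4a1 (1.56), Abcc4 (1.23), Abcb1a (1.21), Abcc3 (1.21), Slc22a21 (1.19) and Abcg1 (1.12). Those of Abcb1a and Slc22a21 involve signals under the floor in both sham arrays, those of Slco4a1, Abcc3 and Abcc4 come with the low knockout-labelled sham array, and that of Abcg1 is made of a knockout-labelled over wild-type log2 ratio of 0.47 after IR minus one of -0.64 after sham surgery. With wild-type sham as the control of both, Slc22a7 had log2 ratios of -4.82 in knockout-labelled IR and -1.40 in wild-type IR, and Slc22a19 had -4.94 and -1.12.

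The proteins that hold or drive these carriers were read from a list of 19 scaffolds, co-transporters and partners, 17 of which were on the array. In knockout-labelled IR, 8 of the 17 were lower than in sham (6.89% of all genes) and none was higher (6.06% of all genes), with a median log2 ratio of -0.93, and in wild-type IR 1 was lower (2.18% of all genes). Pdzk1, the scaffold that holds luminal transporters including URAT1, was 3.33-fold lower in the knockout-labelled genotype and 1.40-fold lower in wild type. Slc13a3, which supplies the dicarboxylates that OAT1 and OAT3 exchange, was 3.20-fold lower in the knockout-labelled genotype. Slc5a8, a monocarboxylate co-transporter whose substrates are exchanged for urate, was 16.0-fold lower in the knockout-labelled genotype and 1.88-fold lower in wild type. Slc51a, 1 of the 2 subunits of an organic solute transporter, was lower in both, 6.05-fold and 2.36-fold.

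The list of 17 transcription factors and regulators of these genes had 12 measured. Of the 12, 1 was higher (6.06% of all genes) and none lower in knockout-labelled IR, and none differed by 2-fold in wild-type IR, so the count of 1 is near the share over all genes. Cebpb, an inflammation-induced factor, was 2.58-fold higher in knockout-labelled IR than in sham. Hnf4a, a nuclear receptor of the proximal tubule that is also among the tubule markers above, had log2 ratios of -0.59 in the knockout-labelled genotype and 0.10 in wild type. Nfe2l2, which encodes NRF2, had log2 ratios of 0.35 in the knockout-labelled genotype and 0.32 in wild type, but 2.28 and 0.11 with its second probe set, so its probe sets disagree in the knockout-labelled genotype.

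The 11 members below the floor on all 4 arrays were Abcb11 and Slco1b2, known from hepatocytes, Slco1c1, known from the blood-brain barrier, and Abcc8, Abcc12, Abcg3, Abcg5, Slco1a5, Slco6b1, Slco6c1 and Slco6d1. They have no ratio here, and a signal below the floor on this array does not show that the gene is silent.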

How the data were processed

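Per the labels, kidney RNA was isolated using Trizol, amplified to biotinylated cRNA and hybridised to Affymetrix 3' arrays. The authors deposited log2 signals per probe set, running from 2.51 to 15.0. MAS5 is named in the submitters' processing notes, with no version, and the scaling between arrays is not given in the sources used here. The values were used as deposited. Probe sets were named through the platform annotation: 34945 of 45037 had 1 symbol, 932 had several and 9160 were unlisted and are unnamed here. A gene took the probe set with the highest mean log2 signal, using cross-hybridising sets marked _x_at only where there was no other. Sets marked _s_at, which can also match more than 1 transcript, were not set aside. Abcc9 and Slc22a12 took such a set although a plain one was on the array. Signals below the floor (the 40th percentile, 52.8 on the linear scale) were set to it, and a gene was measured if either array compared reached it. Named genes were all members at 2-fold or more, the 2 with the highest signal in each role group and the main renal drug and urate transporters. Members and lists were chosen with earlier results of these data known. Arrays correlated at 0.96 to 0.99. With 1 array of pooled RNA a group, the number of arrays limits the precision, and no p-value was computed. The ratio code was tested on simulated data. Alternatives changed the floor, filter, probe set, normalization and sham array. Python 3.11.15, pandas 2.3.3, numpy 2.4.6 and matplotlib 3.10.9 were used.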

Additional observations from a re-analysis of the deposited data

Results flagged for a closer look

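In 3 members the log2 ratio of IR over sham had opposite signs in the 2 genotypes, with each ratio beyond its technical spread over all genes. The 2 ratios of each member differed by 2-fold or more, and with 1 array a group the difference was not tested. Slc22a12 (-1.10 in the knockout-labelled genotype and 0.14 in wild type) and Abcc4 (1.05 and -0.18) also had opposite signs and differed by 2-fold or more. Their wild-type ratios were within the technical spread. For Slc22a6 the ratio was -0.63 in the knockout-labelled genotype and 0.43 in wild type, a difference of -1.07. For Slco1a4 it was -0.66 and 0.56, a difference of -1.23. For Slco4a1 it was 1.23 and -0.32, a difference of 1.56, and the low array of its 4 was knockout-labelled sham.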

How the results depend on the processing

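Counts and medians were recomputed with the floor at the 25th or 50th percentile, with a linear pseudocount of 32 in its place, with genes at or over the floor on every array compared, with the median over a gene's probe sets, with plain probe sets only, with quantile normalization, with median centring, and with the sham array of the other genotype as the control. Over these, 83 of 84 such values stayed within 1.5 times (counts) or within the technical spread (medians). Each median was smaller in size than that spread, so a median could reach 0 and still be counted as within it. For knockout-labelled over wild type after IR the median ran from -0.07 to -0.32. For the difference of responses it reached -0.34, against -0.17. By direction, the sham array of the other genotype gave 4 higher and 13 lower (against 7 and 14) in knockout-labelled IR and 4 higher and 8 lower (against 2 and 8) in wild-type IR, with 17 of the 21 and 8 of the 10 called members still at 2-fold. The pseudocount gave 0 higher and 11 lower (against 2 and 13) between the IR arrays. The exception among the totals was the count of members at 2-fold in wild-type IR, which was 6 (0 higher and 6 lower), against 10, with the median over all probe sets of a gene, where Slco2a1, Abcb1b, Abcc9 and Abcg1 had log2 ratios of 0.60, 0.57, -0.93 and -0.80. The second probe set of Abcb1b was below the floor on all 4 arrays. Of the values of single genes, 1375 stayed within the technical spread, 85 moved beyond it and 1 reversed. A reversal was counted only where the main log2 ratio was 1 or more in size, so sign changes of smaller ratios are not among it. The reversed value was that of Slco4a1 in knockout-labelled IR, at -0.13 with wild-type sham as its control, since knockout-labelled sham was the low array. With knockout-labelled sham as the control, the wild-type log2 ratio went from -0.32 to 1.04 for Slco4a1 and from -0.18 to 0.82 for Abcc4. Scaling alternatives moved the median of all genes by at most 0.06. No paired analysis was possible because each group was 1 array and the labels carry no replicate numbers. For the same reason no array could be left out. Ratios over sham of Slc22a21, Slc22a27, Abcb1a and Abcc6 are bounds in both genotypes, with 1 of the arrays below the floor. Those of Slco4c1, Slc22a29 and Slco5a1 are bounds in the knockout-labelled genotype.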
